A study of Mus musculus with 4 samples.

Results

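The genes described here are 8 core members of the Fas death pathway and its control points in mouse regulatory T cells: the ligand Fasl, its receptor Fas, the adaptor Fadd, the initiator caspase Casp8 and its inhibitor Cflar, and, on the mitochondrial side, Apaf1, Casp9 and the caspase inhibitor Xiap. They were chosen by symbol from 50600 measured genes, and each symbol matched exactly 1 gene identifier. The data are 4 RNA sequencing libraries of primary regulatory T cells of mouse strain C57BL/6NJ, replicates 1 to 4 of the only group, with no treatment, allele or comparison group named. The libraries share 1 donor record, age is given as unknown and sex as not collected. Names in the file headers describe the cells as activated and sorted, at 72 h. A CD4+ T cell differentiation protocol is linked, so the cells may have been made in culture, and the assay title says total RNA, whereas the title of the library protocol says poly(A)+. Nothing states that the libraries came from separate animals or cultures, so p-values cover only how these samples spread, and that spread may be technical.

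Fas is a death receptor of the tumour necrosis factor receptor family. Fas ligand clusters it, the adaptor FADD binds its cytoplasmic death domain, and FADD recruits procaspase-8, which is activated by its own clustering and cleaves downstream caspases or the BH3-only protein Bid. The protein of Cflar, cellular FLIP, resembles caspase-8, is recruited to the same complex and controls how far caspase-8 is activated. When mitochondria release cytochrome c, APAF1 assembles into the apoptosome and activates caspase-9, and XIAP binds and blocks caspase-9 and caspases downstream of it. In T cells this pathway limits clones after activation, and FADD and caspase-8 are also needed for T cells to expand.

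Library depth ran from 32648138 counted read pairs in replicate 4 to 94983494 in replicate 3. The regulatory T cell label was checked against 6 marker genes, all at 1 TPM (transcript abundance corrected for gene length and library depth) or more in every library, with a summed level of 4519 to 5007 TPM; their transcription factor Foxp3 stood at 463.4 ± 25.4 TPM (SD, n = 4). All 6 T cell markers were also expressed, at a sum of 2611 to 2965 TPM. Of 5 B cell markers 0 reached 1 TPM in every library, at a sum of 0.683 to 1.04 TPM, and the 5 neutrophil markers had no count in any library. Expressed in every library were 2 of 8 myeloid markers (Adgre1 and Cd68; sum 7.97 to 11.3 TPM), 0 of 5 erythroid and platelet markers (sum at most 0.245 TPM) and 1 of 6 stromal and endothelial markers (Epcam; sum 2.36 to 6.05 TPM). Xist, the non-coding RNA of the inactive X chromosome, was at 312.1 and 331.1 TPM in replicates 1 and 2 but at 0.539 and 2.38 TPM in replicates 3 and 4, so replicates labelled alike stood apart in this gene.

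Casp8 was the member with the highest level, and with the exon lengths of the files the other 7 lay in a band well below it. With the shortest principal transcript as the length, its lead over the next gene, Cflar, fell from 6.52 to 2.46 times, and Cflar, at 84.2 TPM, stood apart from the remaining 6. The mean level was 215.2 ± 20.4 TPM for Casp8, the apical caspase of the Fas complex, and 12.4 ± 0.802 TPM for Casp9, the lowest. All 8 genes were at 1 TPM or more in every library, beside 23.9% of all 50600 genes in the files. The 8 genes were chosen with earlier results of these data known, so this count is a description and not a test. The median of the 8 means was 23.8 TPM, beside 26.2 TPM for the 12114 genes expressed in all 4 libraries, so the list as a whole sat near the middle of the expressed genes with 1 gene far above it. These are levels of a cell population, in which fewer expressing cells and less RNA per cell cannot be told apart.

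**Figure D1:**
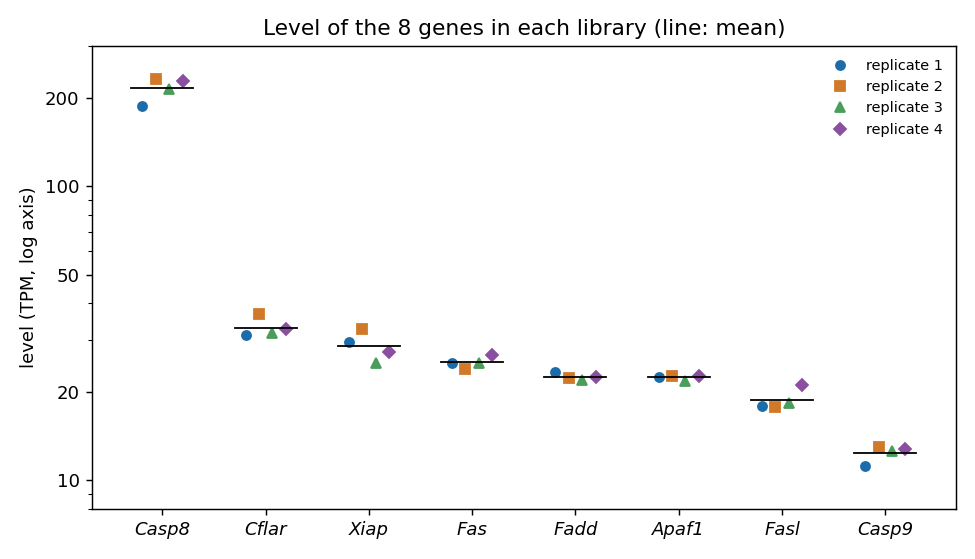
Level in TPM (log axis) of each of the 8 genes in replicates 1 to 4, with a line at the mean, ordered by mean level. Casp8 lies between 186.7 and 231.2 TPM in every library, above every value of the other 7 genes, which lie between 11.2 and 36.7 TPM.

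The ligand and its receptor were both expressed. Fas (ENSMUSG00000024778.12, mm10 chromosome 19, 34290659 to 34327770, plus strand) was at 25.0, 23.8, 25.0 and 26.8 TPM in replicates 1 to 4. Its libraries lay close together, at a mean of 25.2 ± 1.20 TPM (SD, n = 4), and ranked between percentiles 51.3 and 54.7 of the genes at 1 TPM or more in the same library. Fasl (ENSMUSG00000000817.10, chromosome 1, 161780689 to 161788495, minus strand), the membrane ligand that T cells and natural killer cells use to trigger Fas, was at 17.9, 17.8, 18.2 and 21.1 TPM. Replicates 1 to 3 were nearly equal and replicate 4 was the highest, for a mean of 18.8 ± 1.56 TPM. Within a library, Fas exceeded Fasl by 0.41 ± 0.055 on the log2(TPM + 1) scale, in 4 of 4 libraries, which in TPM is 1.27 to 1.39 times.

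Because Fasl is also made by CD8+ T cells and natural killer cells, 9 marker genes of those cells were read beside it. Their summed level was 17.1, 19.4, 21.6 and 22.0 TPM in replicates 1 to 4; most of it came from Cd8b1, a chain of the CD8 coreceptor, at 14.4 ± 2.09 TPM. Klrd1 and Eomes were also expressed in every library, so 3 of the 9 markers were. Cd8a, Klrb1c, Gzma, Gzmb and Prf1 did not reach 1 TPM in every library, and the natural killer receptor gene Ncr1 had no count. The sum was lowest in replicate 1 and highest in replicate 4. Fasl was also highest in replicate 4 but lowest in replicate 2. From replicate 3 to replicate 4 the sum went from 21.6 to 22.0 TPM and Fasl from 18.2 to 21.1 TPM. The part of such cells in the Fasl level was not tested.

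Fadd (ENSMUSG00000031077.7, chromosome 7, 144577318 to 144582463, minus strand), the adaptor that links the receptor to caspase-8, was at 23.4, 22.3, 21.9 and 22.5 TPM. Its mean of 22.5 ± 0.620 TPM lay just under that of Fas, and Fas was the higher of this pair in 4 of 4 libraries, by 0.15 ± 0.071 (log2). An antisense gene, Faddos, covers 6.12% of the exon bases of Fadd. Reads were counted by strand per the file headers, which keeps such reads apart.

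Casp8 (ENSMUSG00000026029.14, chromosome 1, 58795374 to 58847503, plus strand) was at 186.7, 231.2, 214.3 and 228.5 TPM. Replicate 1 was the lowest and the other 3 lay between 214.3 and 231.2 TPM. These levels ranked between percentiles 93.0 and 94.4 of the expressed genes. The level stood 3.20 ± 0.17 (log2) above that of Fadd, the adaptor it binds, and 4.01 ± 0.055 above that of the mitochondrial initiator Casp9, in each case in 4 of 4 libraries.

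Cflar (ENSMUSG00000026031.15, chromosome 1, 58711508 to 58758884, plus strand), the inhibitor that competes with caspase-8 in the receptor complex, was at 31.1, 36.7, 31.6 and 32.7 TPM. Replicate 2 was the highest, and the mean was 33.0 ± 2.51 TPM, the second highest of the 8 genes. Cflar and Casp8 are neighbours on the same strand, 36489 bp apart, with a single annotated gene between them, Gm3841, which had a level of 0 TPM in each library.

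The relation of Cflar to Casp8 shows in their coding sequences. Each stretch below has 45 bases of coding sequence from a GENCODE M21 transcript, 5′ to 3′, on GRCm38. Capitals mark the codon at the place of the caspase catalytic cysteine, found by lining up the 3 proteins on 4 residues they share just before it, with 1 codon in between that is not the same in all 3. It is codon 362 in Casp8 and codon 325 in Casp9, both for cysteine, and codon 362 in the Cflar transcript, where it codes for tyrosine, a known feature of cellular FLIP, which has no protease activity of its own.
Casp8: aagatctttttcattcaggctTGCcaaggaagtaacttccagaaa
Casp9: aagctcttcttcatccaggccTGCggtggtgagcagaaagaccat
Cflar: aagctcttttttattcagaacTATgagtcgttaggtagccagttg

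With the exon lengths of the files, the step from the protease gene to its inactive relative was the largest between neighbours in the order of the 8 genes. The ratio of Casp8 to Cflar in TPM was 6.00, 6.31, 6.78 and 6.98 in replicates 1 to 4, with a mean of 6.52 ± 0.447 (SD, n = 4). The size of this ratio depended on the length used for Cflar. The files give Cflar 12669 bp of exons, the union over 13 transcripts of which 4 are coding, and Casp8 2893 bp. With the longest coding transcript (6572 bp for Cflar, 2585 bp for Casp8) the ratio was 3.78 ± 0.259, and with the shortest principal transcript (3163 and 1917 bp) it was 2.46 ± 0.168. Without any length correction it was 1.49 ± 0.102, in CPM (counts scaled by library depth alone). With the shortest transcript, and without length correction, the step from Cflar to Xiap was the larger one, at 1.64 and 0.66 (log2) beside 1.28 and 0.57 from Casp8 to Cflar. Casp8 exceeded Cflar in 4 of 4 libraries on each of these 4 scales, and gene-level counts do not separate the long and short forms of cellular FLIP.

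**Figure D2:**
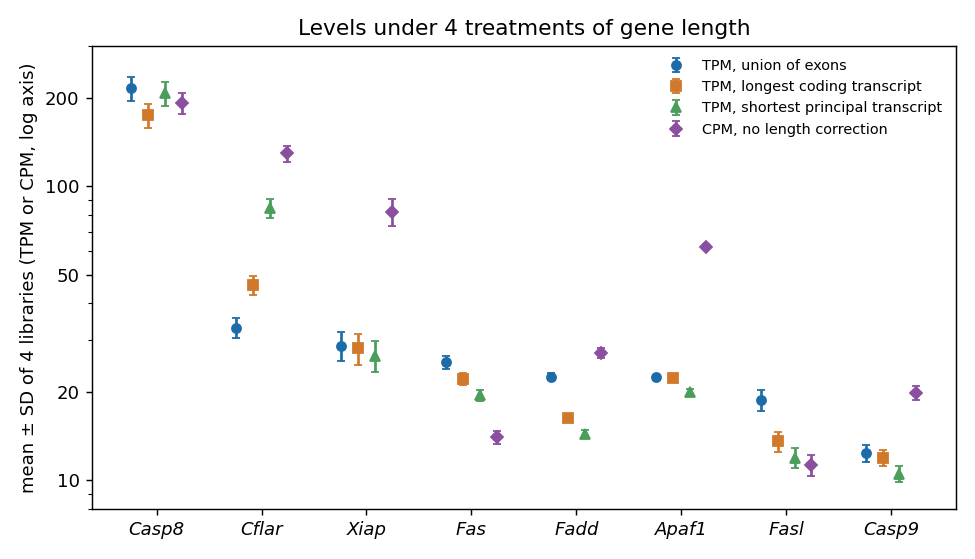
Mean ± SD over 4 libraries of each gene with 3 choices of gene length (TPM) and with none (CPM), on a log axis. Cflar moves the most among the TPM values, from 33.0 to 84.2 TPM, while Casp8 stays the highest gene on all 4 scales.

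The regions at the annotated starts of these neighbouring genes were close in GC content but differed in their number of CpG dinucleotides and in motif matches. The windows below are from RefSeq on GRCm38.p6 and run from 250 bases before to 50 after a start site; that of Casp8 (chr1:58802252-58802551, plus strand) lies inside the gene as the files give it, and that of Cflar (chr1:58711241-58711540, plus strand) lies at the gene's 5′ end. Capitals mark matches on either strand, overlaps allowed, to 6 motifs. The basal promoter boxes were searched as TATAAA, as CCAAT and, for the GC box that Sp1 proteins bind, as GGGCGG. The core site of nuclear factor of activated T cells was searched as GGAAA. The AP-1 site was searched as TGACTCA. The interferon element was searched as a pair of GAAA runs with 2 bases between them. They are shown because the 2 genes lie side by side and had the 2 highest levels.
Casp8: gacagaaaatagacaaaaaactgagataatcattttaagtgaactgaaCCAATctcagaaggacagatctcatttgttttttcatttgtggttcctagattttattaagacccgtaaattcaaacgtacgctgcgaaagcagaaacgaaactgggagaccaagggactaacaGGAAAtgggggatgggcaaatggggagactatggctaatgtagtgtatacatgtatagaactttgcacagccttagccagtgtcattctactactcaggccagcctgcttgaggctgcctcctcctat
Cflar: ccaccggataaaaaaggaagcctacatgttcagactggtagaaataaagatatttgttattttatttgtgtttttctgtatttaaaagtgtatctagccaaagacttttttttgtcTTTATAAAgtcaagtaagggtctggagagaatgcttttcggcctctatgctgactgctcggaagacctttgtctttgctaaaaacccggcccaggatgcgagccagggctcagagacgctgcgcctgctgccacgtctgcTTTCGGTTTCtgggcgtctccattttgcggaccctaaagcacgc

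The Casp8 window had 1 CCAAT and 1 GGAAA match, a GC content of 42.0% and 5 CpG dinucleotides. The Cflar window had 2 overlapping TATAAA matches, on opposite strands, and 1 interferon element match, with 45% GC and 12 CpG. Over 32851 RefSeq windows of the same length, 13.6% held TATAAA, 37.4% CCAAT, 35.7% GGGCGG, 61.3% GGAAA, 5.20% TGACTCA and 3.44% the interferon element, and the median GC content was 52.7%. All 8 genes matched a window, Xiap 3 of them. GC content was 59.0% for Fas, 53.3% for Fasl, 60.3% for Fadd, 66.0% for Casp9 and 74.7% for Apaf1. The 3 Xiap windows had 50%, 61.7% and 37.7% GC, the last of them below that of Casp8. TGACTCA occurred in the Fas window alone among the 8 genes. A match is a run of letters, and no binding was measured here.

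On the mitochondrial side, Apaf1 (ENSMUSG00000019979.12, chromosome 10, 90989311 to 91082770, minus strand), the scaffold of the apoptosome, was at 22.5, 22.6, 21.7 and 22.6 TPM. Its mean of 22.4 ± 0.444 TPM had a coefficient of variation of 1.99%, the lowest of the 8 genes. Casp9 (ENSMUSG00000028914.13, chromosome 4, 141793612 to 141815976, plus strand), the protease that the apoptosome activates, was at 11.2, 13, 12.6 and 12.8 TPM, with replicate 1 the lowest. Apaf1 exceeded Casp9 by 0.81 ± 0.095 (log2) in 4 of 4 libraries, so the scaffold gene was the more abundant partner here, whereas in the receptor complex the protease gene was.

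Xiap (ENSMUSG00000025860.14, chromosome X, 42059679 to 42109656, plus strand), an inhibitor of caspase-9, was at 29.4, 32.7, 25.0 and 27.3 TPM. Replicates 1 and 2 were both above replicates 3 and 4, and the coefficient of variation of 11.4% was the highest of the 8 genes, around a mean of 28.6 ± 3.27 TPM. Xiap exceeded its target Casp9 by 1.14 ± 0.18 (log2) in 4 of 4 libraries. Xist was also high in replicates 1 and 2 and low in replicates 3 and 4, as given above. Aifm1, another X-linked gene of the death pathways, which encodes the mitochondrial apoptosis-inducing factor, was at 58.2, 61.7, 52.4 and 52.8 TPM in replicates 1 to 4. X-linked Foxp3 had another order, at 460.0, 465.2, 495.1 and 433.1 TPM, with replicate 3 the highest. Replicates 1 and 2 were also above replicates 3 and 4 in autosomal Lmnb1, at 300.1, 303.2, 290.1 and 296.1 TPM. The Lmnb1 libraries lay close together, with a coefficient of variation of 1.90%, beside 8.02% for Aifm1 and 11.4% for Xiap. How many other genes split the replicates this way was not counted. Whether Xist and these levels are linked was not tested.

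Of the 28 pairs of genes, 27 kept 1 direction in all 4 libraries. This count includes Xiap and Fas, whose difference in replicate 3 rounds to 0.0 (log2). The exact two-sided sign-flip permutation test over 4 libraries has 16 sign patterns and cannot give a p below 1 in 8, so no pair could pass a threshold of 0.05; the smallest Benjamini-Hochberg adjusted value over the 28 pairs was 0.13 by this exact test. Size and spread therefore carry the comparison. Among neighbours in the order, Cflar exceeded Xiap by 0.20 ± 0.11 (log2, SD over 4 libraries), and Apaf1 exceeded Fasl by 0.25 ± 0.10. Fasl exceeded Casp9 by 0.56 ± 0.12. Xiap and Fas differed by 0.17 ± 0.20, less than the spread between libraries, and in replicate 3 both were at 25.0 TPM. Fadd and Apaf1 could not be ordered: their difference was 0.01 ± 0.032, with Fadd above Apaf1 in 2 of 4 libraries (exact p = 0.75).

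The order below the first 3 places also depended on gene length. Casp8, Cflar and Xiap held the top 3 places, in that order, on all 4 scales. Without length correction, Apaf1, which has 9028 bp of exons, was at 62.4 CPM and above Fadd at 27.2 CPM, and Fas and Fasl, with 1801 and 1937 bp, were the lowest at 14.0 and 11.2 CPM. Fas then lay below Fadd by 0.91 and Fasl below Casp9 by 0.77 (log2), the opposite of the order in TPM. CPM compares no levels between genes of unequal length and is given only to show what the length column contributes.

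Variation between libraries was set against that of genes of like abundance. In edgeR's one-sided goodness-of-fit test at the trended dispersion, with Benjamini-Hochberg adjustment, 0 of 8 members were called at an adjusted p under 0.05, beside 51 of 13494 genes tested, 0.378%. At this background a count of 0 among 8 genes does not set the list apart. At an unadjusted p under 0.05 the counts were 0 of 8 members and 800 of all genes, and 0 members were called with the dispersion trend of DESeq2, by which 61 genes were. The lowest unadjusted p-values of this edgeR test were 0.16 for Xiap and 0.265 for Casp8, and the highest was 0.974 for Apaf1. The median range over libraries was 0.18 in log2 CPM for the 8 members and 0.31 for all genes tested, which are not matched to the members in abundance. In the further lists given below, the median range went from 0.186 for the other inhibitors of apoptosis and their antagonists to 0.42 for the other caspases.

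**Figure D3:**
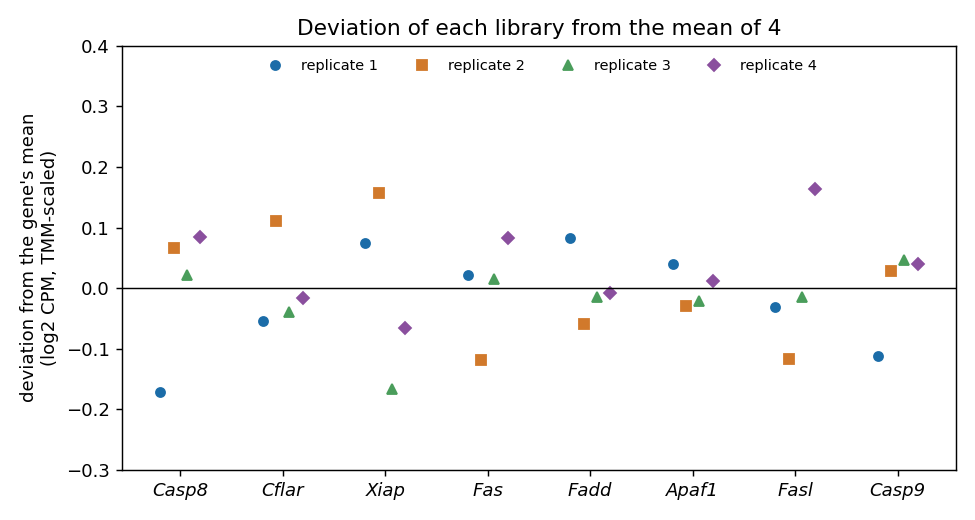
Deviation of each library from the gene's mean over 4 libraries, in log2 CPM after scaling by TMM (edgeR's trimmed mean of M-values). All 32 points lie between -0.17 and 0.16, with Casp8 lowest in replicate 1, Xiap lowest in replicate 3 and Fasl highest in replicate 4.

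In every library some of the 8 genes lay above and others below their means. Casp8 was 0.17 (log2 CPM) below its mean in replicate 1, where Casp9 was 0.11 below and Fadd 0.08 above. In replicate 2, Xiap was 0.16 and Cflar 0.11 above their means while Fas and Fasl were both 0.12 below. In replicate 4, Fasl was 0.16 and Fas 0.08 above. For comparison, the median absolute deviation over all 13494 genes tested was between 0.077 and 0.112 in the 4 libraries. Counting error was small against these deviations for Casp8, at 1.23% of the level in the library with the fewest counts, 6642. It was 4.94% for Fasl with 410 counts and 4.55% for Fas with 484. For Apaf1, with 2054 counts, it was 2.21%, and the deviations of Apaf1 were themselves small, from -0.029 to 0.039 (log2 CPM).

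The pathway around these genes was read from 52 further genes in 5 lists, of which 42 were at 1 TPM or more in every library and 4 had no count in any. Of the 45 that could be tested, 0 were called for excess variation by the edgeR test, beside 0.378% of all genes tested, and 5 had an unadjusted p under 0.05, beside 800 of 13494. Among them were Casp6, Naip2, Tnfrsf25 and Gsdme, of which Casp6, Naip2 and Gsdme are named only for that count, after their values were seen. The median level of the 52 genes was 35.6 TPM.

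Of 8 other caspases, 4 were expressed. Casp2, an initiator caspase activated through the adaptor CRADD, was at 38.5, 40.1, 37.7 and 41.5 TPM, a mean of 39.5 ± 1.68 TPM. Casp8 was above it and Casp9 below it in each library. Casp12 and Casp14 had no count, which at a floor of 3 counts allows up to 0.078 and 0.12 TPM in the shallowest library.

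Of 12 further inhibitor-of-apoptosis genes and their antagonists, 8 were expressed. Htra2, a mitochondrial protease that antagonises XIAP once released, was at 134.6 ± 6.07 TPM. Birc5, which encodes survivin, a chromosomal passenger protein of dividing cells, was at 117.8 ± 6.32 TPM, and Birc3, a ubiquitin ligase of the tumour necrosis factor receptor complex, at 59.7 ± 4.27 TPM. All 3 were above Xiap in each library. Birc7 and Naip1 had no count, with floors of at most 0.195 and 0.0558 TPM. Naip1 belongs to a family of near-identical copies, among which such counts are uncertain.

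Of 13 other death receptor, adaptor and necroptosis genes, 12 were expressed. The highest were 2 receptors of the tumour necrosis factor family, Tnfrsf1b (TNFR2) at 183.4 ± 6.47 TPM and Tnfrsf25 (DR3) at 143.3 ± 16.6 TPM, both above Fas in each library. TNFR2 has no death domain and DR3 has one. Tnfrsf25 was at 167.8 TPM in replicate 1 and at 131.5 to 138.7 TPM in the others, with an adjusted p of 0.737 by edgeR's goodness-of-fit test. Ripk3, the kinase of necroptosis that caspase-8 restrains, was at 84.7 ± 7.0 TPM.

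The mitochondrial link had all 8 genes expressed and a median level of 80.1 TPM. The effector Bax was at 309.9 ± 21.8 TPM, and the antiapoptotic Mcl1 and Bcl2l1 (Bcl-xL) were at 263.9 ± 28.6 and 253.3 ± 10.4 TPM. Each of these 3 was above Apaf1 and Casp9 in every library. Of 11 execution genes, 10 were expressed; the median level was 57.7 TPM. Lmnb1, a lamin that caspases cleave, was at 297.4 ± 5.64 TPM. Parp1, a DNA repair enzyme and classical caspase substrate, was at 197.2 ± 3.81 TPM. Acin1, a chromatin condensation factor cleaved in apoptosis, was at 133.0 ± 6.37 TPM.

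**Figure D4:**
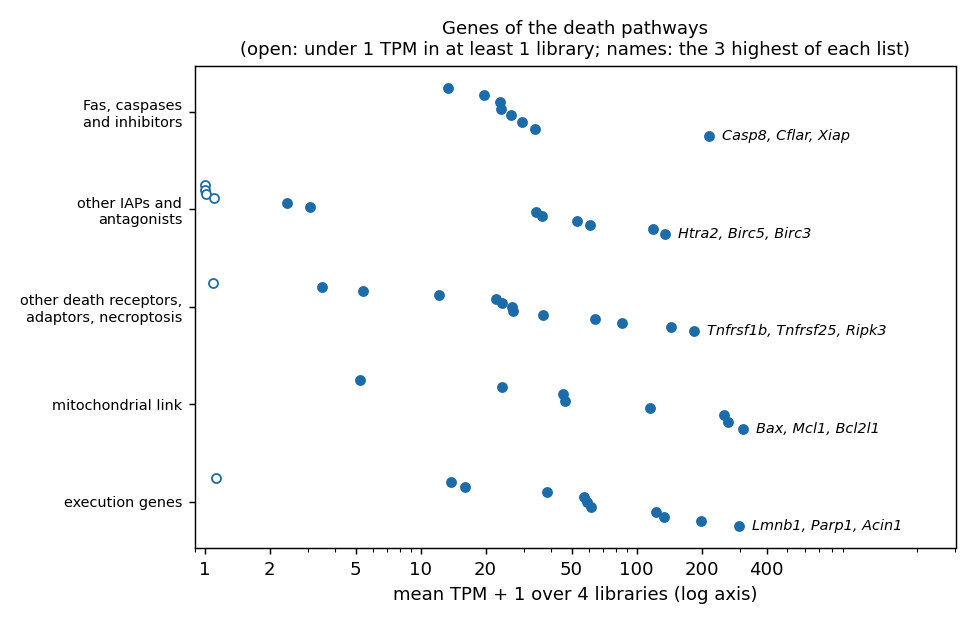
Mean level (TPM + 1, log axis) of every gene in 5 of the 6 lists (the other caspases are not plotted), 1 point a gene, with open points for genes under 1 TPM in at least 1 library and the 3 highest genes of each list named. Casp8 is the outlying point of the first list, and the medians of the plotted lists run from 17.6 TPM for the inhibitors of apoptosis and their antagonists to 80.1 TPM for the mitochondrial link.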

How the data were processed

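The 8 genes and the lists of further genes were chosen with earlier results of these data known. So were the measures of Casp8 over the next gene, the windows, motifs and coding stretches and the shortest-transcript alternative. The authors deposited raw counts of read pairs per gene, whole and not normalized; per the file headers the counter was featureCounts 1.4.6-p4, run on STAR output with GENCODE M13, strand setting 2 and both ends mapped. The labels name mm10. The trimming and aligning options are not given in these sources. The exon length in base pairs in the same deposited files was used for TPM. Gene names, transcripts and coding sequences came from GENCODE M21, which matched 50376 of 50600 identifiers.

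TPM and CPM were computed here from the deposited counts. Expressed means 1 TPM or more in every library. The totals of 46044354, 72147632, 94983494 and 32648138 counts set the 3-count floor to 0.0652, 0.0416, 0.0316 and 0.0919 CPM, for counting error only. The single group leaves no contrast of conditions. Variation beyond the trend was tested with edgeR 4.0.16 in R 4.3.3, using TMM scaling, filterByExpr at a minimum count of 10, an intercept-only fit and the one-sided gof test (goodness of fit) at the trended dispersion, adjusted over 13494 genes at a threshold of 0.05. The script was tested on simulated data. Scaling before filtering was set to match an earlier description of these data. Pairs were compared on log2(TPM + 1), a pseudocount of 1, by an exact sign-flip test; fold changes on that scale understate those of low genes. Alternatives were other scalings, filters, dispersions (DESeq2 1.42.0 for one), lengths, a pseudocount of 0.1 and leaving out each library. Named from each further list were its 3 highest genes by mean, any gene called and any with no count; some genes that this rule names are not reported here. No 2 libraries were duplicates: chi-square per gene was 11.1 to 48.5 over pairs.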

Additional observations from a re-analysis of the deposited data

Results flagged for a closer look

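In 2 of 36 sets of 4 values examined, 1 library stood far from the other 3 by Dixon's ratio of gap to range; chance alone flags about 1 in 20 such sets. Fasl was at 21.07 TPM in replicate 4, above 17.8 to 18.2 TPM in the others, with a gap of 0.852 of the range. Apaf1 was at 21.69 TPM in replicate 3, below 22.5 to 22.6 TPM in the others, with a gap of 0.867 of the range. The Apaf1 libraries span under 1 TPM in all.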

How the results depend on the processing

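No member was called by the test of excess variation under any of the 10 alternatives to it: of 80 adjusted p-values, 0 were under 0.05 and the lowest was 0.990 (lowest unadjusted, 0.0720). The count over all genes, 51 in edgeR, was 936 with a common dispersion and 17 to 55 when each library was left out, with 17 without replicate 1, 21 without replicate 3 and 36 without replicate 4. The ratio of Casp8 to the next highest member, 6.52, was 3.78 with the longest coding transcript and 2.46 with the shortest principal transcript, the latter added after the transcript lengths were seen. Of 104 values of 13 pairs of members under alternatives, 6 changed direction. On log2(CPM + 1) these were Fas minus Fadd at -0.91, Fadd minus Apaf1 at -1.17 and Fasl minus Casp9 at -0.77, where the length division is what was removed. Fadd minus Apaf1 was also -0.42 with the longest and -0.45 with the shortest transcript length, and -0.004 to 0.019 leaving out each library. Mean TPM of the members moved by less than the SD in each of 32 values with a library left out. That outcome was fixed in advance, because leaving out 1 of 4 values cannot move their mean by a full SD. Scaling by TMM or dropping genes under 200 bp moved 2 of 16 by at least the SD. These were Fadd, to 23.2 TPM, and Apaf1, to 23.0 TPM, both without the short genes. No paired analysis was possible because there is 1 group. Depth limits the genes with few counts, Fasl and Fas, most.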
